A study of Mus musculus with 6 samples.

Results

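Immune cells recovered from mouse brains were examined for 9 genes of T cell residency and immune checkpoints, namely Pdcd1, Lag3, Tigit, Ctla4, Tox, Cd69, Itgae, Itga1 and Bhlhe40. The genes were chosen by name with earlier results of these data known, and all 9 were among the 19848 genes of the RNA table. They were followed in the 3 lymphocyte classes that the authors call CD8+, CD4+ and ILCs (innate lymphoid cells), which held 728, 214 and 330 of the 13052 cells. Cells were profiled by CITE-seq, in which antibodies carrying DNA barcodes are read together with the RNA of each cell. All mice were female C57BL/6 and were perfused before the brain was digested whole. The 4 groups were 12-week-old mice on vehicle (young control) or antibiotics that deplete the gut microbiota (young antibiotic), and 72-week-old mice on vehicle (aged control) or antibiotics (aged antibiotic). Per the labels, 24 brains, 6 per group, were combined into 12 pools, 3 per group, and the pool is the replicate here. Young pools were run in 1 well and aged pools in another, so age and well cannot be told apart. In each well hashtags 1 to 3 marked control and hashtags 4 to 6 antibiotic pools, so hashtag and treatment cannot be told apart either.

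Tissue-resident memory T cells stay in a tissue instead of recirculating through blood and lymph. Cd69 encodes a surface protein that retains cells by binding the egress receptor encoded by S1pr1, while the integrin chains encoded by Itgae (CD103) and Itga1 (CD49a) anchor cells to cadherin and collagen. Pdcd1 (PD-1), Lag3, Tigit and Ctla4 encode inhibitory receptors that restrain activated T cells, and Tox encodes a nuclear factor needed for the exhausted state of chronically stimulated CD8 T cells. Bhlhe40 encodes a transcriptional repressor that resident T cells use to sustain their metabolism. In the brain, such cells are known from past infection and from ageing.

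PD-1 and CD103 were the members also read as protein. Their 15-base antibody barcodes, shown because they are the sequences whose copies were counted as tags, were as follows, with no base in capitals because the whole barcode is read.
PD-1: gaaagtcaaagcact
CD103: ttcattagcccgctg
The RNA values come from whole genes. In the RefSeq annotation of GRCm38.p6, Pdcd1 spans chr1:94038305-94052553, Lag3 chr6:124904359-124912434, Tigit chr16:43626137-43665125, Ctla4 chr1:60909025-60915832 and Tox chr4:6686353-6991557. Cd69 spans chr6:129267324-129275375, Itgae chr11:73090505-73147449, Itga1 chr13:114958079-115101964 and Bhlhe40 chr6:108660629-108666925. All 9 are annotated as protein-coding genes.

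The RNA value of a gene in a cell is the SCT value, a whole-number UMI score that SCTransform corrects for sequencing depth, and a pool's level is the mean over its cells of a class. CD8+ pools held 5 to 122 cells, CD4+ pools 4 to 50 and ILCs pools 5 to 87. Young control pool 2 held 4 CD4+ cells and was left out of that class's fits, which need 5. Raw RNA totals of a class in a pool ran from 33087 to 1150947 UMIs. Among the cells of these classes no cell barcode occurred in both wells, against 59 over all classes. The class labels held for the T cells. Cd8b1 averaged 3.94 to 8.60 per cell in CD8+ pools and at most 0.11 in CD4+ pools, and Cd4 averaged 0.33 to 1.67 in CD4+ pools and at most 0.00826 in CD8+ pools. The ILCs class was mixed and its makeup moved with age. Cells with natural killer (NK) markers (at least 2 of Ncr1, Klrb1c, Eomes and Tbx21) made up 65.6% to 84.4% of young pools and 0% to 40.0% of aged pools. Cells with type 2 markers (at least 2 of Gata3, Il1rl1, Areg, Il5 and Il13) made up 0% to 21.9% of young pools and 20.7% to 61.3% of aged pools. In aged control pool 2, 54 of its 87 ILCs cells (62.1%) carried RNA of Trac, Cd8a or Cd8b1, which are T cell genes.

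Over all pools, every member except Lag3 and Bhlhe40 had its highest mean in a T cell class. Tox averaged 0.936 ± 0.44 (SD, n = 12 pools) in CD8+, 0.907 ± 0.52 (n = 11) in CD4+ and 0.434 ± 0.16 (n = 12) in ILCs cells. CD8+ exceeded ILCs in 11 of 11 pools that held all 3 classes, whereas the CD8+ and CD4+ levels lay within each other's spread. Ctla4 was highest in CD4+ cells at 1.84 ± 1.5 (n = 11), against 0.571 ± 0.16 in CD8+ and 0.179 ± 0.16 in ILCs cells, and CD4+ exceeded CD8+ in 9 of 11 pools. Cd69 averaged 3.55 ± 0.75 in CD8+, 3.18 ± 1.3 in CD4+, 2.26 ± 2.0 in ILCs and 2.22 ± 0.75 in B cells, and each step in this order was smaller than the spread between pools. Bhlhe40 was highest in ILCs cells at 2.72 ± 1.1, followed by the Ly6CLow myeloid class at 2.48 ± 0.43, CD4+ cells at 2.13 ± 0.61 and CD8+ cells at 1.43 ± 0.50. ILCs exceeded CD8+ cells in Bhlhe40 in 10 of 11 pools. Pdcd1 averaged 0.444 ± 0.32 in CD8+, 0.307 ± 0.25 in CD4+ and 0.254 ± 0.16 in ILCs cells, steps smaller than the spread between pools.

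Lag3 was the exception, with its highest level outside the lymphocytes. Microglia averaged 1.84 ± 0.29 (n = 12 pools), with no pool below 1.45, while CD8+ pools averaged 0.323 ± 0.19 and none exceeded 0.65. The 3 lymphocyte classes lay within each other's spread for Lag3. Itgae averaged 0.143 ± 0.057 in CD8+, 0.0900 ± 0.16 in CD4+ and 0.0358 ± 0.046 in ILCs cells, and CD8+ exceeded ILCs in 11 of 11 pools. Itga1 averaged 0.584 ± 0.24 in CD8+, 0.520 ± 0.30 in ILCs and 0.350 ± 0.21 in CD4+ cells, and CD8+ exceeded CD4+ in 10 of 11 pools. Tigit was scarce, at 0.0444 ± 0.046 in CD8+ cells and 0 in all 12 pools of microglia.

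**Figure D1:**
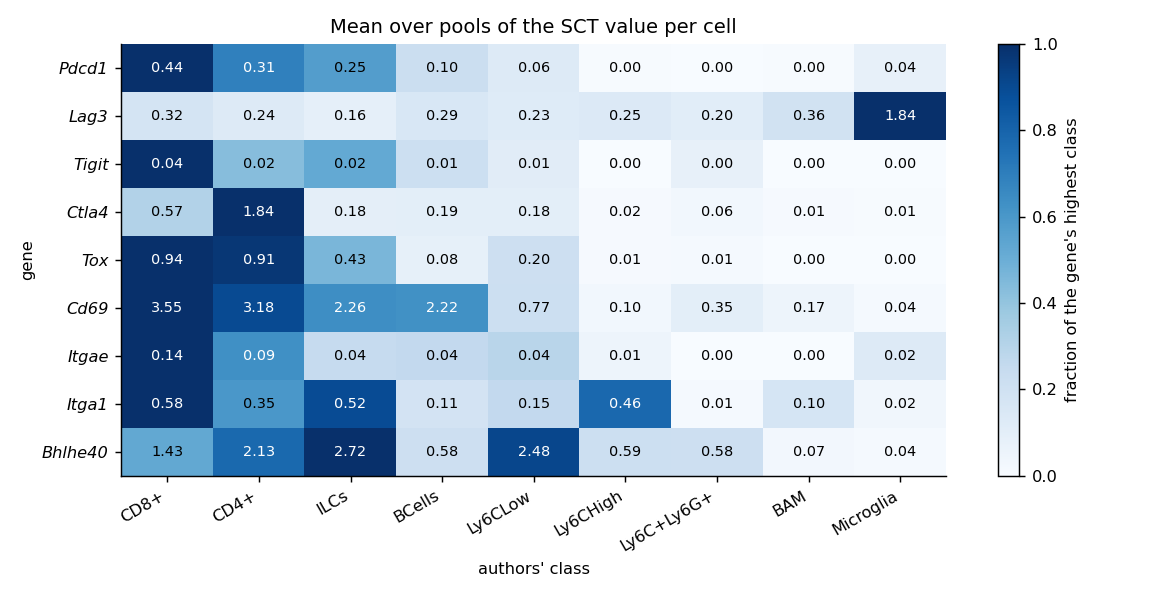
Mean SCT value per cell of each gene (rows) in 9 of the authors' classes (columns), averaged over the pools with at least 5 cells; colour gives the fraction of the gene's highest class. Lag3 peaks in microglia at 1.84, Bhlhe40 in ILCs at 2.72 and the other genes in a T cell class.

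Some UMIs in a droplet come from free RNA, so the share of cells above 0 was set beside that in microglia of the same well. Pdcd1 was above 0 in 15 of 106 young CD8+ cells (14.2%, 95% exact binomial interval 8.14% to 22.3%) and in 208 of 622 aged CD8+ cells (33.4%, 29.7% to 37.3%). In microglia the share was 1.13% in the young and 3.81% in the aged well. For Tox the CD8+ shares were 34.9% and 57.6%, against 0.0397% and 0.184% in microglia. Median raw totals were 8287 and 6927.5 UMIs in young and aged CD8+ cells, and 6809 and 7118 in young and aged microglia. The CD8+ shares of both genes lay above those of microglia in the same well at similar depth. The shares in young and aged microglia were 0.258% and 0.803% for Ctla4, 1.51% and 2.71% for Cd69, 1.49% and 1.58% for Itgae, and 1.25% and 1.03% for Itga1. Lag3 differed from these. It was above 0 in 18.9% of young and 21.1% of aged CD8+ cells, against 68.5% and 75.5% of microglia. In cells of the authors' class BAM it was above 0 in 19.2% and 23.3%. Its CD8+ shares thus did not lie above those of either class. The part of free RNA in them was not tested. The intervals cover counting error only.

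**Figure D2:**
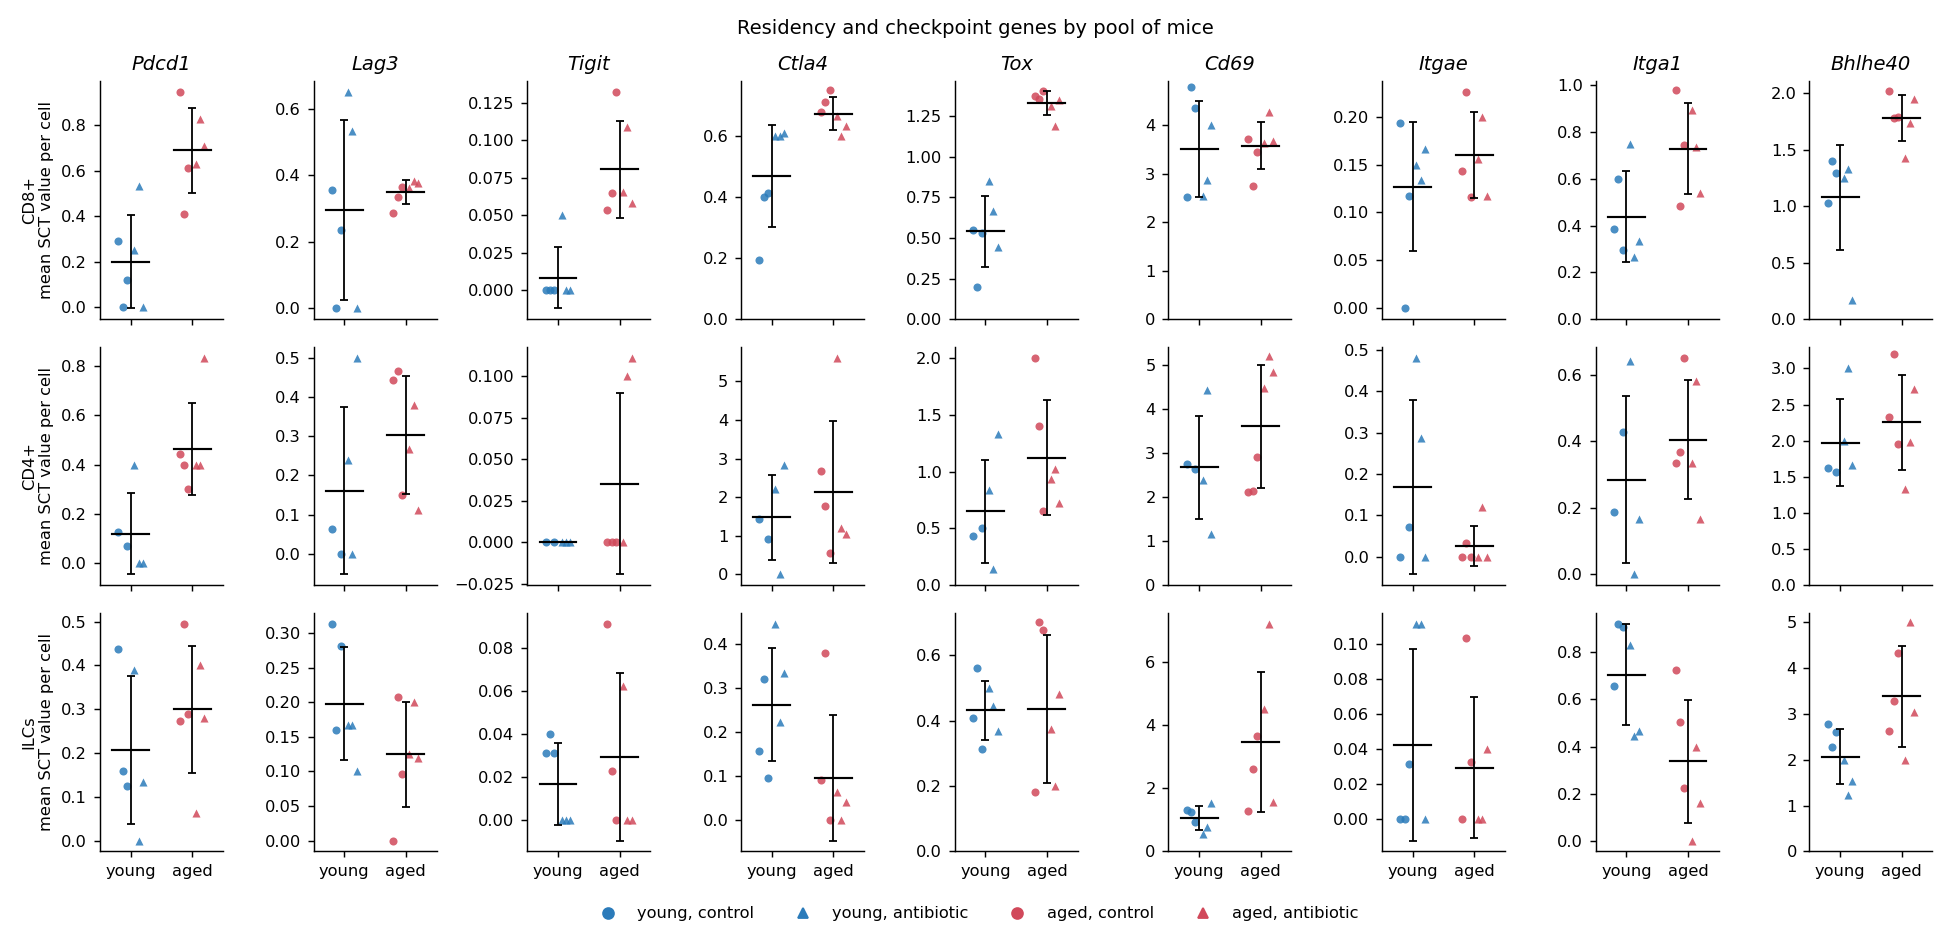
Mean SCT value per cell of each gene in each pool, for CD8+, CD4+ and ILCs cells; circles are control and triangles antibiotic pools, and bars give the mean and SD of the pools of an age. For Tox in CD8+ cells the aged pools (1.19 to 1.40) lie clear of the young pools (0.20 to 0.850).

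The first comparison asked which members differed with age. It was fitted with limma on log2 of the pool level plus 0.05 for genes with a mean of at least 0.05, with Benjamini-Hochberg adjustment over all genes tested and a call at an adjusted p under 0.05. In CD8+ cells 8 of the 9 members could be tested and 1, Tox, was called, beside 70 of 8254 genes (0.848%). All 8 had estimates above 0, with a median log2 change of 0.79 against 0.07 over all genes. The lowest, Cd69 at 0.06, changed sign in some alternative runs. The share of all genes above 0 was not counted, and the members were chosen with earlier results known, so this is description only. Young CD8+ pools held 5 to 31 cells and aged ones 56 to 122, so the young levels rest on fewer cells.

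Tox rose with age in CD8+ cells. Young control pools had levels of 0.548, 0.20 and 0.529 and young antibiotic pools 0.850, 0.667 and 0.444, while aged control pools had 1.38, 1.35 and 1.40 and aged antibiotic pools 1.31, 1.19 and 1.35. Every aged pool lay above every young pool, and the mean of the aged pools was 2.47 times that of the young. The log2 change was 1.33 ± 0.22 (SE), with an adjusted p of 0.0071 by limma and an exact two-sided permutation p of 0.005, the smallest that the arrangement of pools within each arm allows. In the controls alone it was 1.69 ± 0.31 with an adjusted p of 0.042 by limma, where 12 genes (0.145%) were called. In the antibiotic pools alone it was 0.96 ± 0.31 with an adjusted p of 0.41 by limma, where 16 genes (0.194%) were called. The difference between the 2 arms was not called (-0.73 ± 0.44, adjusted p = 0.80 by limma).

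The share of CD8+ cells with RNA of Ccr7 or Lef1 moved with age as well. Cells with RNA of Ccr7 or Lef1, genes of naive and recirculating T cells, made up 29.4% to 65% of young and 12.5% to 28.2% of aged CD8+ pools. As means over cells, Cd69 was 3.41 in young and 3.55 in aged cells with these RNAs, and 3.04 and 3.60 in those without. Whether the cells with these RNAs circulate was not tested. Among cells without these RNAs, Tox was 0.429 to 1.14 in 5 young pools with at least 5 such cells and 1.32 to 1.51 in the 6 aged pools. The pools of the ages did not overlap there either, and the share of all genes without overlap was not counted in this subset. The estimate there was smaller, at 0.89 on the log2 scale, and was not called (adjusted p = 0.10 by limma), where 31 of 8220 genes (0.377%) were called. B cell transcripts also differed between wells in this class. The summed level of 5 B cell markers ran from 0.13 to 0.76 in young and 0.88 to 59.5 in aged CD8+ pools, with Igkc the marker called for age, and the part of this in the result was not tested. The summed level of 5 neutrophil markers moved the other way, from 1.61 to 114 in young and 0.369 to 0.613 in aged CD8+ pools, with none of them called. The sum of 6 monocyte and dendritic cell markers ran from 5 to 35.7 in young and 2.77 to 6.42 in aged CD8+ pools, and Ly6c2 among them was called lower (-1.33, adjusted p = 0.0029 by limma). The part of these in the result was not tested either.

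Pdcd1 had the largest estimate of the 8 tested members in CD8+ cells but was not called. Young control pools had 0.290, 0 and 0.118 and young antibiotic pools 0.250, 0.533 and 0, against 0.946, 0.409 and 0.612 in aged control and 0.631, 0.827 and 0.708 in aged antibiotic pools. Only 1 young pool, young antibiotic 2, reached into the aged range. The log2 change was 2.07 ± 0.53 with an adjusted p of 0.098 by limma and an exact permutation p of 0.005. The call depended on the processing and on that pool. The adjusted p by limma was 0.030 with a pseudocount of 0.5, 0.031 with logs taken per cell, 0.014 with pools weighted by their cells and 0.035 without young antibiotic pool 2.

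The other inhibitory receptors of CD8+ cells were not called. Tigit, below the filter, was 0 in 5 young pools and 0.05 in young antibiotic pool 1, and 0.0536 to 0.132 in the aged pools, with no overlap and an exact permutation p of 0.005. The young pools at 0 held 5 to 31 cells, against 56 to 122 in the aged pools, so their lack of Tigit rests on few cells. Pools without overlap, higher in the aged, were found for 69 of 8254 tested genes (0.836%), Tox and Bhlhe40 among them. That count leaves out genes below the filter, Tigit included. Ctla4 ran from 0.194 to 0.611 in young and 0.60 to 0.752 in aged pools, and its log2 change was 0.55 ± 0.19 (adjusted p = 0.25 by limma). Lag3 ran from 0 to 0.650 in young and 0.286 to 0.382 in aged pools, so the aged pools sat inside the range of the young. Its change was 0.85 ± 0.59 with an adjusted p of 0.63 by limma. The aged mean of Lag3 was 1.18 times the young, and 2 young pools were at 0. Without cells carrying Ccr7 or Lef1 RNA the Lag3 estimate was 0.03 and that of Pdcd1 was 1.42, with adjusted p values of 0.99 and 0.33 by limma.

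Bhlhe40 separated the ages in CD8+ cells without passing the threshold. Young pools ran from 0.167 through a median of 1.27 to 1.40 and aged pools from 1.43 through 1.79 to 2.02. The log2 change was 0.91 ± 0.34, with an adjusted p of 0.30 by limma and an exact permutation p of 0.005, and it was called when pools were weighted by their cells (0.97, adjusted p = 0.043). Without cells carrying Ccr7 or Lef1 RNA the estimate was 0.64, with an adjusted p of 0.63 by limma.

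The adhesion genes of CD8+ cells were not called. Itga1 ran from 0.267 to 0.750 in young and 0.484 to 0.982 in aged pools, overlapping, and its log2 change was 0.72 ± 0.26 (adjusted p = 0.29 by limma). Itgae ran from 0 to 0.194 in young and 0.116 to 0.226 in aged pools, with a change of 0.37 ± 0.37. Cd69 had nearly equal pool means in both ages, 3.51 ± 0.99 in young and 3.58 ± 0.49 in aged pools (SD, n = 6 pools each). Its change was 0.06 ± 0.16 with an adjusted p of 0.91 by limma.

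**Figure D3:**
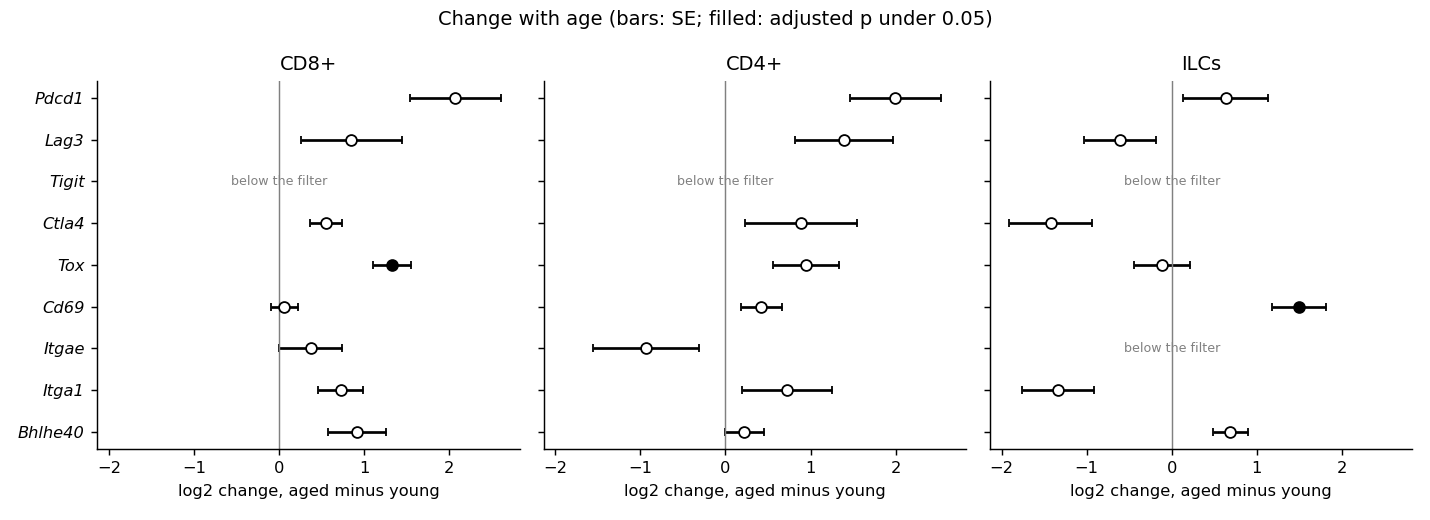
Log2 change with age (aged minus young, horizontal axis) of each gene in CD8+, CD4+ and ILCs cells, with its SE; filled points passed an adjusted p of 0.05. Tox in CD8+ cells (1.33) and Cd69 in ILCs cells (1.49) are the filled points.

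In CD4+ cells 0 of 8 members tested were called for age by limma, beside 34 of 8265 genes (0.411%), and 3 had an unadjusted p under 0.05, beside 8.29% of all genes tested. Those 3 were Pdcd1, Lag3 and Tox, with estimates above 0. Pdcd1 levels were 0.125 and 0.0714 in the 2 young control pools and 0.40, 0 and 0 in the young antibiotic pools, against 0.444, 0.40, 0.30, 0.40, 0.40 and 0.833 in the aged pools. Of the young pools fitted, 1 reached the aged range. Young control pool 2, left out for its 4 cells, had the highest level of all at 1.25. The log2 change was 1.99 ± 0.53, with an adjusted p of 0.11 by limma and an exact permutation p of 0.015, and without young antibiotic pool 1 it was 2.52 with an adjusted p of 0.012 by limma. Tox ran from 0.143 to 1.33 in young and 0.650 to 2.00 in aged pools, with a change of 0.95 ± 0.39 and an adjusted p of 0.51 by limma.

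The remaining CD4+ values overlapped between the ages. Lag3 ran from 0 to 0.50 in young and 0.111 to 0.467 in aged pools, with a change of 1.40 ± 0.58 and an adjusted p of 0.51 by limma. Cd69 ran from 1.17 to 4.43 and from 2.11 to 5.20, with a change of 0.42 ± 0.24. Ctla4 varied widely between pools, from 0 to 2.83 in young and 0.550 to 5.60 in aged pools, the latter in aged antibiotic pool 1 with its 15 cells. Its change was 0.89 ± 0.66, and -0.05 without young antibiotic pool 2. Itgae was 0 in 4 of 6 aged pools and ran to 0.480 in young antibiotic pool 1, with a change of -0.93 ± 0.62 and an adjusted p of 0.75 by limma. The class held RNA of antigen-presenting cells that moved with age. Cd74, the class II invariant chain, averaged 28.1 to 36.9 per cell in young and 0.278 to 12.1 in aged CD4+ pools. The summed level of 6 monocyte and dendritic cell markers ran from 2.94 to 59.4 in young and from 1.43 to 9.74 in aged pools, and Ly6c2 was called lower (-2.17, adjusted p = 0.011). The neutrophil genes S100a8 (-2.26, adjusted p = 0.046) and S100a9 (-2.12, adjusted p = 0.012) were called lower and Igkc higher (3.04, adjusted p = 0.0032), all by limma. The part of these transcripts in the members' values was not tested.

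In ILCs cells 7 members could be tested and 1, Cd69, was called for age, beside 237 of 8300 genes (2.86%). Cd69 averaged 1.31, 1.24 and 0.938 in young control pools and 0.556, 0.778 and 1.53 in young antibiotic pools. The aged control pools had 1.27, 2.61 and 3.65 and the aged antibiotic pools 4.5, 7.2 and 1.56. Aged control pool 1 lay inside the young range and the other 5 aged pools above it. The log2 change was 1.49 ± 0.32, with an adjusted p of 0.010 by limma and an exact permutation p of 0.015, and the aged mean was 3.27 times the young. It was called in the antibiotic pools alone (2.02 ± 0.45, adjusted p = 0.020 by limma), where 145 genes (1.75%) were called. It was not called in the controls alone (0.97 ± 0.45, adjusted p = 0.84), where 19 genes (0.229%) were called, and the difference between the arms was not called (1.05 ± 0.64, adjusted p = 0.95).

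The Cd69 levels also differed by the kind of cell in the class. Cells with type 2 markers averaged 3.37 in the aged well (65 cells) and 0.917 in the young well (12 cells), and cells with NK markers averaged 1.26 in the aged (43 cells) and 1.17 in the young well (117 cells). Cells with neither set of markers averaged 3.45 in the aged (66 cells) and 0.962 in the young well (26 cells). The aged mean was above the young one in each of these kinds of cell, by the least in cells with NK markers. These are means over cells, which are not replicates. The 12 young cells with type 2 markers all came from control pools. Aged control pool 2 held 87 of the 175 aged ILCs cells, with NK markers in 16 and type 2 markers in 18. Most aged cells with neither set thus came from that pool, where 54 cells carried T cell RNA. Over pools, the log2 change in cells with NK markers alone was 0.18 with an adjusted p of 0.94 by limma, where 24 of 8183 genes (0.293%) were called. In cells without Trac, Cd8a or Cd8b1 RNA it was 1.46 with an adjusted p of 0.0061 by limma, where 377 of 8328 genes (4.53%) were called. The call was thus kept without the cells that carry T cell RNA and was lost within the cells with NK markers. In that last subset the 4 aged pools with at least 5 such cells ranged from 0.20 to 3.40 and the young pools from 0.357 to 1.64.

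Itga1, the collagen-binding integrin chain of type 1 innate cells, went the opposite way in ILCs cells. Young control pools had 0.656, 0.920 and 0.906 and young antibiotic pools 0.833, 0.444 and 0.467, against 0.727, 0.506 and 0.226 in aged control and 0, 0.40 and 0.160 in aged antibiotic pools. The aged values were lower on average, with 2 pools inside the young range. The log2 change was -1.34 ± 0.42, not called (adjusted p = 0.11 by limma), with an exact permutation p of 0.015. In cells without Trac, Cd8a or Cd8b1 RNA the estimate was -2.22 with an adjusted p of 0.000889 by limma, and 4 of the 5 aged pools there lay below every young pool. In cells with NK markers it was -1.61 with an adjusted p of 0.085 by limma, from 4 aged pools. Aged control pool 1, left out for its 2 such cells, had the highest Itga1 level of this subset at 2.5. Itga1 was also called in the class at pools of at least 10 cells (-1.70, adjusted p = 0.0058), at 2000 raw UMIs per cell (-1.81, adjusted p = 0.0027) and with pools weighted by cells (-1.46, adjusted p = 0.0072), all by limma. Leaving out aged antibiotic pool 2, with its 5 cells, is the same fit as the limit of 10 cells.

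**Figure D4:**
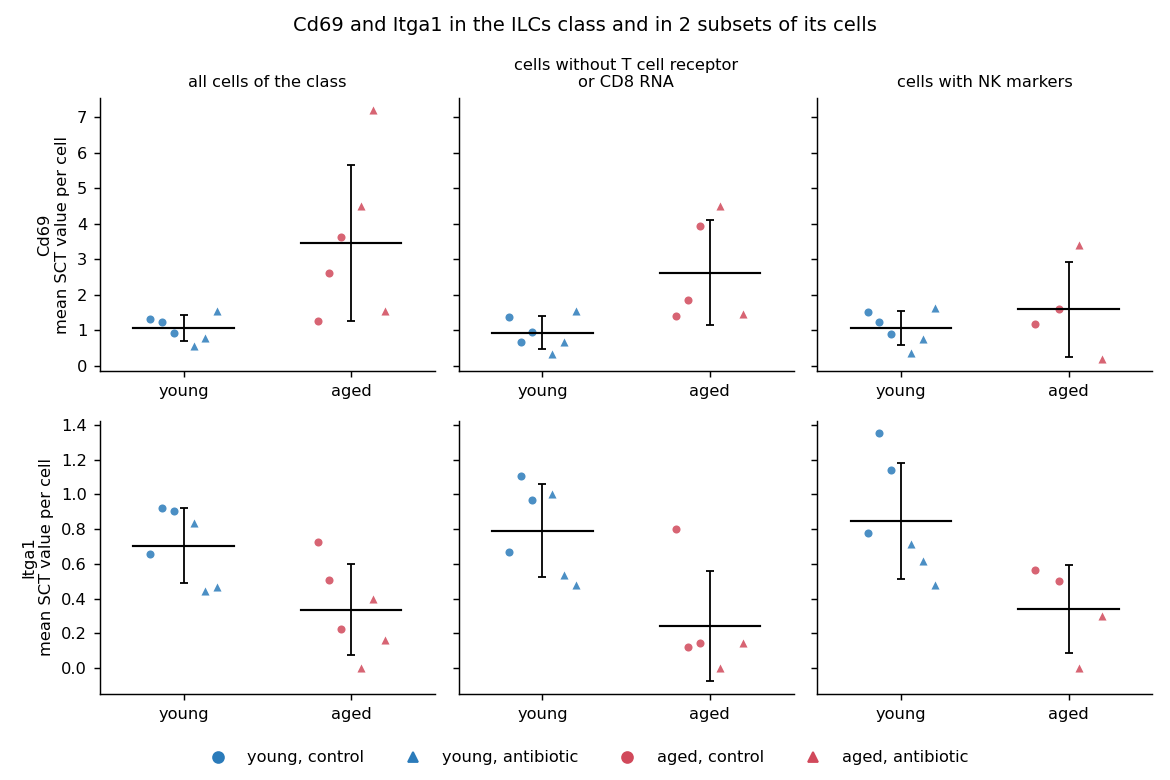
Mean SCT value per cell of Cd69 (top) and Itga1 (bottom) by pool in all ILCs cells, in those without Trac, Cd8a or Cd8b1 RNA and in those with NK markers; bars give the mean and SD of the pools of an age. Cd69 averages 3.46 in aged and 1.06 in young pools over all ILCs cells, against 1.60 and 1.07 in those with NK markers, and Itga1 averages lower in aged pools in all 3. Only pools with at least 5 such cells are shown.

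Bhlhe40 ran from 1.22 through a median of 2.14 to 2.78 in young and from 2.00 through 3.16 to 5 in aged ILCs pools, and its log2 change was 0.69 ± 0.20 (adjusted p = 0.082 by limma). The highest value came from the 5 cells of aged antibiotic pool 2. It was called with pools weighted by cells (0.62, adjusted p = 0.027) and without aged antibiotic pool 1 (0.84, adjusted p = 0.019), both by limma. Ctla4 was 0.0938 to 0.444 in young pools and 0 to 0.379 in aged pools, the highest aged value being that of aged control pool 2. Its change was -1.42 ± 0.49 with an adjusted p of 0.15 by limma, and without that pool it was -1.81 with an adjusted p of 0.045. Tox levels were alike in both ages, 0.432 ± 0.090 in young and 0.436 ± 0.23 in aged pools (SD, n = 6 pools each). Pdcd1 and Lag3 overlapped between the ages, with changes of 0.63 ± 0.49 and -0.61 ± 0.42, and Itgae and Tigit lay below the filter.

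The second comparison asked what antibiotics did, first over both ages. No member was called in any of the 3 classes by limma. In CD8+ cells 0 of 8254 genes (0%) were called and 0 of the 8 members had an unadjusted p under 0.05, beside 8.34% of all genes. The CD4+ fit called 0 of 8265 genes (0%), with 0 of the 8 members at an unadjusted p under 0.05, beside 4.61% of all genes. The ILCs fit called 1 of 8300 genes (0.012%), the cytokine gene Csf2, and 1 of the 7 members, Itga1, had an unadjusted p under 0.05, beside 4.07% of all genes. The antibiotic effect on Itga1 was -1.03 ± 0.42, with an adjusted p of 0.99 by limma and an exact permutation p of 0.065. Changes of Tox in CD8+ cells (0.26 ± 0.22), of Pdcd1 in CD8+ cells (0.37 ± 0.53) and of Cd69 in CD4+ cells (0.40 ± 0.24) were all within 2 SE of 0. Within single ages no member was called by limma either, where 3 genes (0.0361%) were called in aged ILCs cells and 0 in the other 5 fits. Unadjusted p values under 0.05 were those of Ctla4 in young CD8+ cells (0.82 ± 0.27, adjusted p = 0.15 by limma), where 17.2% of all genes passed that limit, and Cd69 in aged CD4+ cells (1.02 ± 0.32, adjusted p = 1), where 2.83% did. In ILCs cells they were those of Itga1 in aged (-1.55 ± 0.60, adjusted p = 0.67 by limma) and Bhlhe40 in young pools (-0.69 ± 0.29, adjusted p = 1), where 7.12% and 2.4% did.

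The antibiotic effect was also compared between the ages, and again no member was called by limma. The fits called 0 genes (0%) in CD8+ and CD4+ cells and 2 (0.0241%) in ILCs cells. An unadjusted p under 0.05 was held by Ctla4 in CD8+ cells, beside 6.34% of all genes, by Cd69 in CD4+ cells, beside 3.82%, and by no member in ILCs cells, beside 4.67%. For Ctla4 in CD8+ cells the young antibiotic pools (0.60, 0.60 and 0.611) all lay above the young controls (0.194, 0.40 and 0.412), and the aged antibiotic pools (0.664, 0.60 and 0.633) all lay below the aged controls (0.679, 0.710 and 0.752). The difference of the 2 effects was -0.98 ± 0.38, with an unadjusted p of 0.020 and an adjusted p of 0.74 by limma. For Cd69 in CD4+ cells the aged antibiotic pools (4.47, 5.20 and 4.83) lay above the aged controls (2.11, 2.13 and 2.90), while the young pools overlapped. The difference of the 2 effects was 1.23 ± 0.47, with an unadjusted p of 0.015 and an adjusted p of 0.997 by limma. How many of all genes separate the arms by pool within an age was not counted.

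PD-1 and CD103 tags were then compared with the RNA of the same cells, as a share of a cell's antibody tags because tag totals differed between the wells. Young CD8+ cells with Itgae RNA had a mean CD103 share of 4.19% (11 cells), against 0.504% in the 95 without. The corresponding values in aged cells were 4.45% (52 cells) and 0.302% (570 cells), and the share was higher in the cells with RNA in 11 of 11 pools that held both. For PD-1 the shares were 0.918% and 0.270% in young CD8+ cells with and without Pdcd1 RNA, and 0.746% and 0.530% in aged ones, higher with RNA in 10 of 10 pools. In CD8+ cells, those with RNA of either gene thus carried a larger share of its protein. For PD-1 the share was higher with RNA in 10 of 10 CD4+ and 8 of 11 ILCs pools, and for CD103 in 4 of 5 CD4+ and 5 of 6 ILCs pools.

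Between groups neither protein was called by edgeR's quasi-likelihood test. In CD8+ cells 10 of 34 antibodies (29.4%) were called for age, in CD4+ cells 7 (20.6%) and in ILCs cells 9 (26.5%). PD-1 had log2 changes with age of 0.63 ± 0.48 in CD8+, 0.47 ± 0.39 in CD4+ and 0.89 ± 0.44 in ILCs cells, with adjusted p values by edgeR of 0.36, 0.41 and 0.20. In CD8+ cells it was called with the hashtag number as a block (0.86, adjusted p = 0.046 by edgeR). The change of CD103 was 0.10 ± 0.50 in CD8+ and -1.16 ± 0.51 in CD4+ cells, the latter with an adjusted p of 0.16 by edgeR. For antibiotics 2 antibodies were called in CD8+ cells (5.88%) and 0 in CD4+ and ILCs cells (0%), with neither PD-1 nor CD103 among them. DESeq2 called 3, 1 and 0. PD-1 and CD103 in CD4+ cells had unadjusted p values of 0.030 and 0.015 for antibiotics, with changes of 0.99 ± 0.40 and 1.49 ± 0.52 and an adjusted p of 0.34 for both by edgeR.

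PD-1 tags stood apart in the pools marked with hashtag 5, in both wells. In CD8+ cells the share of PD-1 tags was 0.883% in young antibiotic pool 2 and at most 0.376% in the other young pools, and 1.23% in aged antibiotic pool 2 and at most 0.555% in the other aged pools. The hashtag 5 pool had the highest PD-1 share in 8 of 8 classes with 6 usable pools in the young well and in 8 of 9 in the aged well, B cells and microglia included, and the other aged class was Ly6CHigh. Without both pools, the antibiotic change of PD-1 went from 0.71 to -0.17 in CD8+, from 0.99 to 0.40 in CD4+ and from 0.55 to -0.03 in ILCs cells, none of them called by edgeR. The part of hashtag 5 in the values was not tested. For CD103, hashtag 5 was highest in 5 of 8 classes in the young well and hashtag 4 in 5 of 9 in the aged well.

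**Figure D5:**
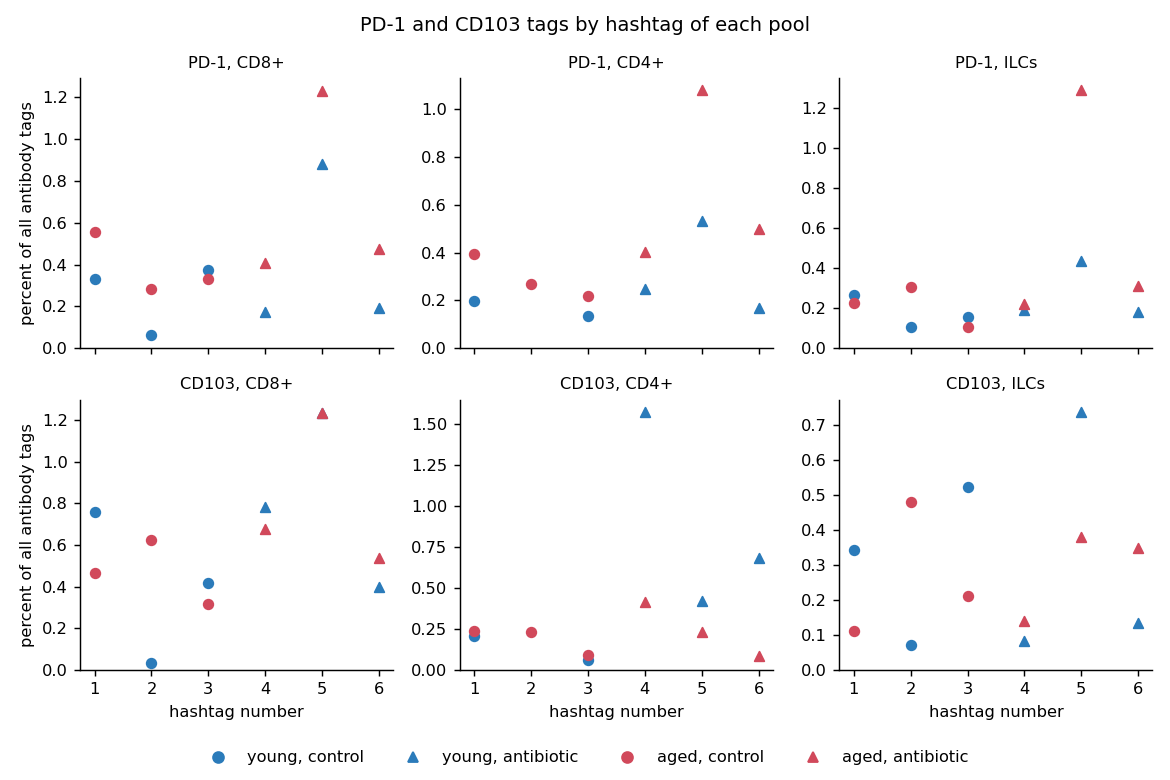
PD-1 (top) and CD103 (bottom) tags as a percent of all antibody tags in CD8+, CD4+ and ILCs cells (vertical axis), by the hashtag number of the pool (horizontal axis); colour gives age, circles control and triangles antibiotic pools. The PD-1 share is highest at hashtag 5 in both wells and all 3 classes, reaching 1.23% in aged CD8+ cells.

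Within single CD8+ cells several checkpoint genes were detected in the same cells. Tox was above 0 in 72.6% of aged cells with Pdcd1 RNA and 50% of those without, and in 66.7% and 29.7% of young ones, higher with Pdcd1 in 10 of 10 pools that held both kinds. Median raw totals were lower in the cells with Pdcd1 RNA (6723.5 against 7066.5 UMIs in the aged well and 7366 against 8293 in the young). Ctla4 was above 0 in 44.7% of aged cells with Pdcd1 RNA and 24.4% of those without, higher in 9 of 10 pools. Cd69 was above 0 in 75.5% and 77.5%, and was higher with Pdcd1 RNA in only 2 of 10 pools. Itgae was at 8.65% and 8.21%, higher in 5 of 10 pools. Itga1 was above 0 in 63.5% of the 52 aged cells with Itgae RNA and in 38.9% of those without, a difference seen in 7 of 11 pools. Cells with Itgae RNA were deeper, at a median of 7867 against 6829.5 UMIs. Tox was above 0 in 36.5% of aged cells with Itgae RNA and 59.5% of those without, and in 45.5% and 33.7% of young ones, opposite directions in the 2 wells.

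Patterns over the 35 class-by-pool means of the 3 classes are described without a test, since the points share pools and wells. Among members, Tox was most like Lag3 (Pearson r = 0.714), followed by Tox with Ctla4 (0.686) and Pdcd1 with Lag3 (0.560). Over the 8401 genes with a mean of at least 0.05, Isg20 (r = 0.745) was most like Pdcd1, Plcg1 (0.734) most like Tox and Trbc1 (0.809), a T cell receptor chain, most like Ctla4. Il10rb (0.817) was most like Itga1, Lmo1 (0.753) most like Itgae, Rpl12 (0.735) most like Cd69 and Frmd4b (0.656) most like Bhlhe40. The next places went to Ncoa6 and Tspan3 for Pdcd1, Atg4a and Acsbg1 for Lag3 after Tox, H2-T23 and Sdcbp2 for Tox, and Cd247 and Lck for Ctla4. They went to Themis and Rps29 for Cd69, Ifi206 and Krtcap3 for Itgae, Dcps and Tprgl for Itga1, and Junb for Bhlhe40.

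Other genes of these pathways were read from 6 lists, named here as each is described. Beside the list counts called for age, the fits called 0.848% of all genes tested in CD8+, 0.411% in CD4+ and 2.86% in ILCs cells. Of the genes of egress and circulation, 1 of 8 tested was lower and 0 were higher with age in CD8+ cells, with a list median of -1.22 against 0.07 over all genes. Lef1, a transcription factor of naive and memory-precursor T cells, fell from 0.738 ± 0.27 in young to 0.194 ± 0.054 in aged pools (SD, n = 6 each), a log2 change of -1.65 ± 0.25 with an adjusted p of 0.0035 by limma. S1pr1, the receptor Cd69 antagonises, had a change of -1.66 with an adjusted p of 0.28, not called by limma, and is named after its values were seen. In CD4+ cells 1 of 9 was lower, Klf2, which drives S1pr1, at -1.12 ± 0.24 with an adjusted p of 0.018 by limma, and the list median was -0.90. In ILCs cells Klf2 was lower (-1.25 ± 0.22, adjusted p = 0.0018) and Il7r, the survival receptor that also marks type 2 cells, was higher (1.32 ± 0.27, adjusted p = 0.00625), both by limma, with a list median of -1.10.

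Of the exhaustion and other checkpoint genes, 0 of 19 tested were called in CD8+ cells by limma. Of these, 3 had an unadjusted p under 0.05, beside 11.7% of all genes, and the list median was -0.01. In CD4+ cells 1 of 18 was higher, Eomes, a T-box factor of cytotoxic cells, which rose from 0.0857 ± 0.19 in young (n = 5) to 0.598 ± 0.27 in aged pools (n = 6), a log2 change of 3.07 ± 0.55 with an adjusted p of 0.00665 by limma. In ILCs cells Nr4a1, an immediate target of antigen and cytokine receptors, was higher (1.68 ± 0.25, adjusted p = 0.000307), and the inhibitory receptor genes Cd160 (-1.32 ± 0.27, adjusted p = 0.00668) and Vsir (-1.26 ± 0.31, adjusted p = 0.0265) were lower, of 16 tested by limma.

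Of the residency partners and regulators, 0 of 11 tested were called in CD8+ or CD4+ cells, with 2 and 3 at an unadjusted p under 0.05 by limma, beside 11.7% and 8.29% of all genes. In ILCs cells 2 of 11 were lower by limma, Itgb1, the chain that pairs with the product of Itga1, at -1.69 ± 0.20 (adjusted p = 4.71e-05) and the chemokine gene Xcl1 at -1.73 ± 0.40 (adjusted p = 0.0190). Itgb1 averaged 2.76 ± 0.34 in young and 0.904 ± 0.48 in aged pools, with no overlap. Aged pools lay below all young pools in 83 of 8300 genes (1%) of this class. Of the regulatory and helper genes, 0 were called or had an unadjusted p under 0.05 in the T cell classes, and in ILCs cells Il2ra (2.27 ± 0.29, adjusted p = 9.78e-05) and Ccr8 (2.48 ± 0.57, adjusted p = 0.018) were higher and Bcl6 (-1.46 ± 0.38, adjusted p = 0.042) lower, of 5 tested by limma. These ILCs genes moved together with the marker shares given above. Of the ligands, H2-Ab1, a class II chain bound by LAG-3, was lower in aged CD4+ pools (-2.93 ± 0.55, adjusted p = 0.00898 by limma), as was Cd74. No gene of the signalling list was called in any class by limma, with 2, 1 and 1 of 9 at an unadjusted p under 0.05 in CD8+, CD4+ and ILCs cells, beside 11.7%, 8.29% and 14% of all genes. For antibiotics, and for the difference of their effect between the ages, 0 genes of the 6 lists were called in any class by limma, with 0 to 3 genes of each list at an unadjusted p under 0.05.

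Among all genes, the largest age changes called in CD8+ cells were Igkc (5.82 ± 0.73) and Jchain (3.29 ± 0.46) upward and Dapl1 (-3.34 ± 0.34) and Ramp1 (-1.95 ± 0.37) downward. The 2 raised genes belong to antibody-secreting B cells. In CD4+ cells they were Gzmk (3.38 ± 0.51) and Eomes upward and Mgl2 (-3.16 ± 0.59) and Cd74 (-3.14 ± 0.61) downward. In ILCs cells they were Areg (4.37 ± 0.42) and Hs3st1 (3.89 ± 0.44) upward and Klrb1c (-2.48 ± 0.58) and S100a9 (-2.43 ± 0.56) downward. S100a9 is a neutrophil gene, and 1 young pool held 31.9 of it per ILCs cell, against 0.933 in the lowest young pool. Csf2 (-3.27 ± 0.44) was the gene called for antibiotics in ILCs cells.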

How the data were processed

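The authors deposited, for each cell, SCT-corrected RNA values, which are whole numbers and are treated as a score rather than counts. The authors' deposited antibody table holds raw tag counts, and raw UMI totals are counts in the deposited metadata. Classes and hashtag calls were the authors'; all cells were called singlets. Cell Ranger 3.0.2, Seurat 3.0.1 and the build mm10 are named in the submitters' processing notes, and the settings are not given in the sources used here. RNA was averaged per class and pool (at least 5 cells) and fitted with limma 3.58.1 (trended variance) on log2(mean + 0.05). Genes needed a mean of at least 0.05. Summed antibody counts were tested with edgeR 4.0.16 (quasi-likelihood, TMM), with DESeq2 1.42.0 as an alternative. All groups shared a fit, and the members' exact permutation tests (54, of which 11 gave an unadjusted p under 0.05) rearranged pools within arm or age. The scripts were tested on simulated data. Members and lists were chosen with earlier results of these data known. Named genes were all members, called list genes, the 2 most changed called genes per direction, and each member's 3 most similar genes, and some genes these rules name are not reported here. The p-values measure the spread between these pools.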

Additional observations from a re-analysis of the deposited data

Results flagged for a closer look

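The antibiotic effect on Ctla4 in CD8+ cells differed in direction between the ages. All 3 young antibiotic pools (0.60 to 0.611) lay above the young controls (0.194 to 0.412), and all 3 aged antibiotic pools (0.60 to 0.664) lay below the aged controls (0.679 to 0.752). The difference of the effects was -0.98 on the log2 scale, with an adjusted p of 0.74 by limma, so it did not pass the test.

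In ILCs cells, 2 genes of antigen presentation that are not among the 9 did pass it. The antibiotic effect on H2-Aa, a class II chain, differed between the ages by -7.37 on the log2 scale, and that on Cd74 by -6.45, each with an adjusted p of 0.026 by limma. H2-Aa averaged 9.82, 2.60 and 4.71 in the aged controls and 0.188, 0 and 0.08 in the aged antibiotic pools. It averaged 4.67 in young antibiotic pool 1 and at most 0.233 in the other 5 young pools. These pools held 5 to 87 ILCs cells. RNA of other cell types was present in this class too. The summed level of 6 monocyte and dendritic cell markers ran from 4.94 to 11.1 in young and 2 to 15.5 in aged pools. Igkc was called higher with age (3.72, adjusted p = 4.71e-05) and the neutrophil genes S100a9 and Ngp lower, by limma. The part of such RNA in the H2-Aa and Cd74 values was not tested.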

How the results depend on the processing

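Of the members' 23 age estimates, 19 kept their sign in every alternative run. The other 4, none of them called, were Cd69 in CD8+, Ctla4 in CD4+ and Pdcd1 and Tox in ILCs cells. Cd69 in ILCs cells lost its call within cells with NK markers, and Tox in CD8+ cells lost its call without cells carrying Ccr7 or Lef1 RNA (0.89, adjusted p = 0.10 by limma). Leaving out each pool in turn, age calls ranged from 25 (without aged antibiotic 2) to 148 genes (without young control 2) in CD8+, from 4 (without young control 1) to 53 (without aged antibiotic 2) in CD4+ and from 143 (without young antibiotic 3) to 374 (without aged antibiotic 3) in ILCs cells. Antibiotic calls ranged from 0 to 17 (without young control 1) in CD8+, were 0 in CD4+ and ranged from 1 to 5 genes in ILCs cells, and calls of the difference between the ages from 0 to 1, 0 to 1 and 0 to 6. Antibodies ranged for age from 2 to 7 in CD4+ and 5 to 9 in ILCs cells, and for antibiotics from 0 to 2 in CD8+ and 0 to 1 in CD4+ cells. In CD8+ cells, age gave 154 genes with pools weighted by cells, 148 with pools of at least 10 cells and 31 without cells carrying Ccr7 or Lef1 RNA. Antibiotics gave 4, 1 and 0 there, and the difference between the ages 1 in that subset. Without the hashtag 5 pools, CD8+ antibodies for antibiotics gave 0 and CD4+ antibodies for age 3. In CD4+ cells, age gave 22 genes without a filter, antibiotics 5 with weights, and antibodies for age 12 by DESeq2 and 13 by library size, with 1 for antibiotics by DESeq2. In ILCs cells, age gave 146 genes without a filter, 24 in cells with NK markers and 377 without T cell RNA. Antibiotics gave 5, 9 and, with logs per cell, 0. The difference between the ages gave 7 in either subset, 0 with logs per cell or without a filter, 9 with weights and 4 with pools of at least 10 cells. ILCs antibodies for age gave 4 with at least 10 tags, 5 by library size and 5 with pools of at least 10 cells. By RNA, pools of the same hashtag number correlated weakly across the wells, with r of -0.03 to 0.09 in 17 pairs. The own number was the best match, among at most 3 pools, in 10 of the 17. PD-1 tags shared the hashtag 5 pattern. With the replicate block by number, CD4+ age calls were 57 genes and ILCs antibody calls 5, Pdcd1 in CD8+ cells had an adjusted p of 0.0125 by limma and PD-1 in CD8+ cells 0.0457 by edgeR. Pools of at least 10 cells were not run for CD4+ cells. The cause of these moves was not tested. The 3 cell subsets and the hashtag 5 setting were chosen after the data were seen. Pools of 5 cells limit the precision, and age and well cannot be told apart.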
